A study of Rattus norvegicus with 10 samples.

Results

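The genes described here are the cilia and flagella associated protein genes (Cfap) and the tektin genes (Tekt) of rat round spermatids, the haploid germ cells that begin to build a sperm tail after meiosis. They were chosen by name and annotation: every entry annotated as protein-coding whose symbol is Cfap or Tekt followed by a number. This gave 19 entries of the 32545 in the files, 14 for Cfap genes and 5 for tektins, carrying 18 symbols because Cfap46 is annotated as 2 separate gene models. Cfap61 is annotated in the files as a processed transcript and so falls outside the rule; it stood at 25.7 to 31.7 FPKM in aged and 27.7 to 31.6 FPKM in young libraries. The study compared wild-type Brown Norway rats aged 18 to 20 months (aged, 5 samples) with rats aged 4 to 6 months (young, 5 samples), all kept under normal conditions with free food and water. Round spermatids were separated from testis suspensions by STA-PUT, which sorts cells by their sedimentation speed, and messenger RNA libraries were sequenced. Nothing in the labels ties a sample to a single animal, and the p-values below therefore reflect sample-to-sample spread that may be technical.

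A sperm tail is built round the axoneme, a ring of microtubule doublets about a central pair, with dynein motors, radial spokes and linking complexes between them. Tektins are filament-forming proteins that line the inside of the doublets, together with other microtubule inner proteins, several of which carry Cfap names. Other Cfap proteins belong to the central apparatus, to the attachments of the inner dynein arms and radial spokes, or to the machinery that assembles the tail. Mutations in several of them, among them CFAP43, CFAP44, CFAP65, CFAP69 and CFAP70, are known in men with malformed, immotile sperm tails.

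The recovered depth was 15992576 to 18203223 fragments in aged and 14488222 to 17401744 in young libraries, and each Cfap or Tekt entry was covered by 637 to 13694 fragments in each library. Markers of round spermatids summed to 1560.1 to 1777 FPKM in aged and 1443 to 1844 FPKM in young libraries (8 of 8 markers found, none at a mean under 1 FPKM). Those of spermatocytes, the meiotic cells that come before, summed to 185 to 238 FPKM in aged and 205 to 278 FPKM in young libraries. Peritubular markers summed to 93.1 to 244 FPKM in aged and 58.9 to 88.5 FPKM in young libraries and Leydig cell markers to 11.0 to 122 FPKM in aged and 4.98 to 8.16 FPKM in young libraries, with aged replicate 2 the highest in both. It was also the highest for Sertoli markers (28.6 to 121 FPKM in aged, 22.6 to 29.0 FPKM in young) and macrophage markers (17.7 to 73.4 FPKM in aged, 13.1 to 21.4 FPKM in young). In a bulk fraction, fewer cells of a type and less RNA per cell cannot be told apart. Of 8 markers of multiciliated epithelium, another source of axoneme transcripts, 6 were found in the files. Ccno averaged 42.0 FPKM and Epcam 11.0 FPKM, while the defining regulators Mcidas and Gmnc averaged 0.306 and 0.988 FPKM and Pax8 0.0658 FPKM.

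No Cfap or Tekt gene passed the test for a difference between aged and young round spermatids, and the levels of the whole family were close between the ages. Of the 19 entries, 8 were fitted higher and 11 lower in aged libraries, against 45.5% of all 12985 tested genes fitted higher, and the median log2 difference was -0.04 for the family, against -0.02 for all tested genes. The family median was -0.016 by voom (all genes 0.0058) and -0.011 without aged replicate 5 (all genes -0.017). It was -0.014 after taking out a dependence on gene length and level (all genes -0.012). Without young replicates 1 and 5 it was -0.065 (all genes -0.013). Its place relative to all genes thus turned without aged replicate 5. By the place of the protein in the tail, 8 of 9 genes of doublet inner proteins were fitted above young, with Tekt2 the farthest at a fitted fold of 1.09, and all 6 central apparatus entries below, with the upstream Cfap46 model the farthest at 0.86. These counts were the same under every scaling tried, and of all alternatives only the one without aged replicate 2 turned an entry, Cfap221. Other filters on low values and a block on replicate number could not turn one, since they leave these estimates unchanged. Median-of-ratios scaling left them almost unchanged, so it is no check on the counts either. The genes of the inner-arm attachments (3 of 3) and Cfap97 were also fitted below young.

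The test was limma on log2(FPKM + 1), where FPKM is the fragment count scaled to gene length and a denominator for each library, with Benjamini-Hochberg adjustment over all 12985 genes that averaged at least 1 FPKM. All 19 entries met that minimum. At an adjusted p under 0.05, 0 of 19 entries and 0 of 12985 genes passed, 0% in both cases, and voom, limma's model for counts, on the recovered fragments also passed none; the lowest adjusted p of the family was 0.319 (Cfap74) and the highest 0.851 (Cfap221). At an unadjusted p under 0.05 there were 4 entries, all lower in aged libraries, 21.1% of the family against 6.35% of all tested genes in that direction, and 0 entries higher, against 5.54%. That split depended on the scaling: voom gave 3 entries higher and 3 lower, and TPM scaling 1 higher and 2 lower. In either direction the share was 11.9% of all tested genes, 11.8% by voom and 11.1% with TPM scaling. The groups did not overlap for 1 entry, Cfap74, lower in aged libraries, which is 5.26% of the family against 1.24% of all tested genes in that direction and 2.6% in either. No entry was higher in every aged library than in every young one, against 1.36%. The 95% interval of the fitted fold lay within 1.5-fold of no difference for all 19 entries, against 87.2% of all tested genes. The entries had a median level of 78.8 FPKM and a median within-group SD of 0.075 log2 units. Over all tested genes these were 8.1 FPKM and 0.141, so the shares do not compare like genes.

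**Figure D1:**
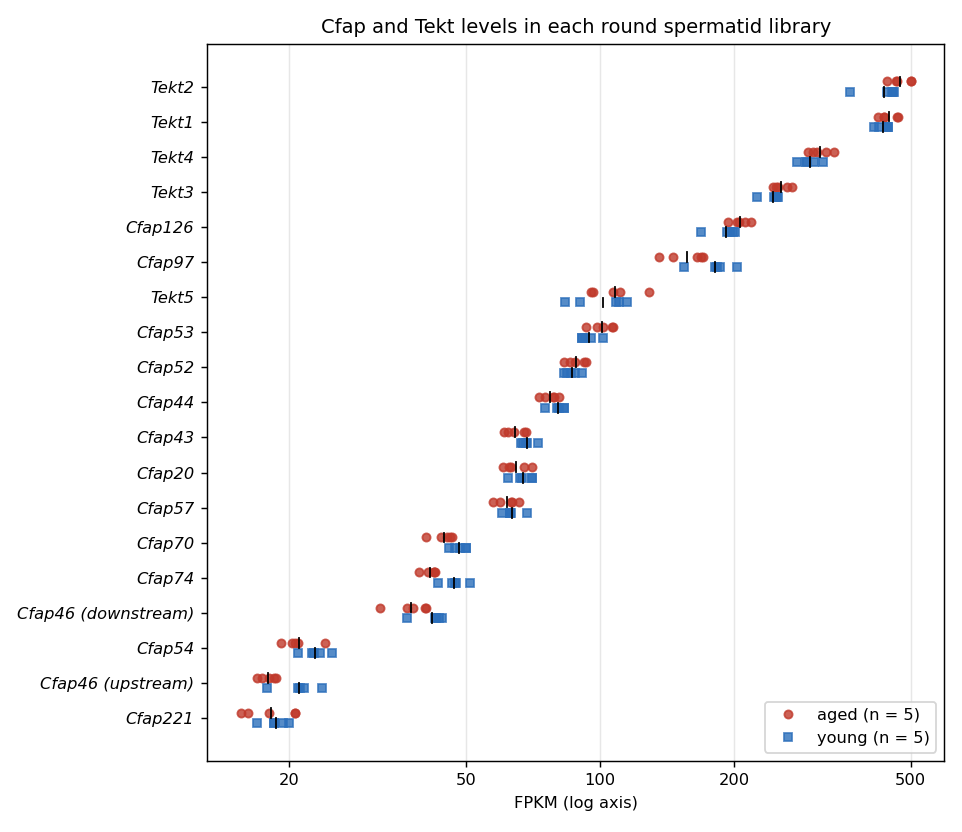
Level of each Cfap and Tekt entry in each library, in FPKM on a log axis; aged libraries are circles, young libraries squares, and the black bars mark the mean of each group (n = 5 each). The 2 ages overlap for every entry except Cfap74, and the entries span 18.4 FPKM (Cfap221) to 455 FPKM (Tekt2) in their means over 10 libraries.

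Tekt2, Tekt1, Tekt4 and Tekt3 had the highest levels of the family, while Tekt5 lay below Cfap126 and Cfap97. Tekt2 averaged 474 ± 25.4 FPKM in aged and 435 ± 40.2 FPKM in young libraries (SD, n = 5 each), and Tekt1 446 ± 20.6 FPKM in aged and 434 ± 13.9 FPKM in young libraries. By mean level over the 10 libraries they ranked 144 (Tekt2) and 150 (Tekt1) among all genes in the files, while Tekt4 ranked 299 and Tekt3 393. The 5 tektins summed to 1595 ± 75.1 FPKM in aged and 1511 ± 82.9 FPKM in young libraries. All Cfap and Tekt entries together summed to 2597 ± 92.3 FPKM in aged and 2544 ± 88.7 FPKM in young libraries, or 0.478% and 0.464% of all FPKM. Down the order of mean levels, the range over 10 libraries overlapped that of the next entry in 11 of 18 neighbouring pairs. The pairs apart were Tekt1 over Tekt4, Tekt4 over Tekt3, Tekt3 over Cfap126, Cfap97 over Tekt5, Cfap44 over Cfap43, Cfap57 over Cfap70 and the downstream Cfap46 model over Cfap54.

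Promoter windows from RefSeq (250 bases before to 50 after the annotated start, build GRCr8) were held for 15 of the 18 symbols, all but Tekt5, Cfap52 and Cfap53. They are shown for Tekt1, Tekt2 and Tekt4, the most abundant members, and for Cfap20, the doublet inner protein that was fitted below young. Capitals mark matches to GTTGCC, the core of the sites of RFX factors, which regulate ciliary genes, and to the paired form, GTTGC and GCAAC with 3 bases between them, each on either strand.
Tekt1 (GRCr8 chr10:57479072-57479371, minus strand): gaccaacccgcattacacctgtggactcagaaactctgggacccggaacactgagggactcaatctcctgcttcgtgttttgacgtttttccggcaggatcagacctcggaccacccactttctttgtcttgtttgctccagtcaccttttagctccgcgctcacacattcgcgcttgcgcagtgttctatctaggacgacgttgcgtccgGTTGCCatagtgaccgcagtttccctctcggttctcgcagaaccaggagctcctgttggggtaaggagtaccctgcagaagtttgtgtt
Tekt2 (GRCr8 chr5:143907675-143907974, minus strand): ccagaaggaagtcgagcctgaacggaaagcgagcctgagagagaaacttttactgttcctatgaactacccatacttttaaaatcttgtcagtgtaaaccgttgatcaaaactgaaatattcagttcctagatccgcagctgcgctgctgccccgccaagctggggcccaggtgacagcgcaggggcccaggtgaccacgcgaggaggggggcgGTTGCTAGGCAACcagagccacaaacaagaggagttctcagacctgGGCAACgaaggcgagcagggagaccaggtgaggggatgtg
Tekt4 (GRCr8 chr10:14992034-14992333, plus strand): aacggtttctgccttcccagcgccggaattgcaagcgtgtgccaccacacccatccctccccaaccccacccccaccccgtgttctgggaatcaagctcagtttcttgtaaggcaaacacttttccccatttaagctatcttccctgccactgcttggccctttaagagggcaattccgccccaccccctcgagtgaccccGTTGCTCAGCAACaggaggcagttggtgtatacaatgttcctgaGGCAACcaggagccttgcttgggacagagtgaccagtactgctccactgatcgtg
Cfap20 (GRCr8 chr19:9614728-9615027, plus strand): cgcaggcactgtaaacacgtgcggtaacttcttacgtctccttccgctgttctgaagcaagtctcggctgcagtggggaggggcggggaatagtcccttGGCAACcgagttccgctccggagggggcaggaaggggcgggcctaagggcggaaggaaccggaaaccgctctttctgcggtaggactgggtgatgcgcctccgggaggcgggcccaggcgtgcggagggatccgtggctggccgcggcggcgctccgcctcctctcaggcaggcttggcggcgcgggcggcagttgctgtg
The core was found in 7 of 15 member genes with a window (Cfap20, Cfap44, Cfap46, Cfap74, Tekt1, Tekt2 and Tekt4), 46.7%, and in 13.1% of all 27457 genes with one. The paired form was found in Tekt2, 36 to 24 bases before the start, and in Tekt4, 49 to 37 bases before it, which is 2 of 15 member genes against 0.295% of all genes. In Tekt2 the paired form contains a match to the core. The core match of Tekt1 lay 39 to 34 bases before the start, and that of Cfap20 151 to 146 bases before it. A full cAMP response element, TGACGTCA, was in no member window and in 1.999% of all genes, the forkhead motif TGTTTAC in 3 of 15 and 4.13%, and the MYB motif CAGTTG in 4 of 15 and 14.6%. Of the other spellings, the forkhead TGTTTAT was in 0 of 15 and 4.97%, the MYB motif CCGTTG in 2 of 15 and 5.74%, and the short TGACG in 4 of 15 and 23.0%. A longer paired form, GTTNCC and GGNAAC with 2 bases between them, was in 0 of 15 and 0.488%. GTTGCC with a G after 2 further bases was in 2 of 15 and 5.51%, and 3 looser paired spellings in 2 to 3 of 15, against 1.504% to 3.92% of all genes. Genes with several windows count as matched when any of them matches. The matches describe letters in these windows only; 13 spellings of these motifs were searched, some after the windows had been read. Rfx2, the RFX factor known for its role in spermatid tail formation in mice, averaged 282 ± 16.4 FPKM in aged and 285 ± 2.36 FPKM in young libraries, a log2 difference of -0.02 (SE 0.04).

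Tekt2 (ENSRNOG00000011033, chromosome 5, 144341946 to 144345531, minus strand) stood at 462, 465, 500.4, 443 and 499.98 FPKM in the aged libraries (replicates 1 to 5), against 364, 454, 443, 456 and 459 FPKM in the young ones. Coordinates here are those of the files, for which no source used here names a genome build. Young replicate 1 lay apart from the other 4 young libraries, which were inside or near the range of the aged ones. This gave a fitted fold of 1.09 (95% interval 0.98 to 1.21), on the log2(FPKM + 1) scale that all folds here are on, and limma gave an unadjusted p of 0.0884 and an adjusted p of 0.468. Without young replicate 1 the log2 difference was 0.06, against 0.13 with it.

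Tekt1 (ENSRNOG00000014973, chromosome 10, 58895674 to 58924137, minus strand) stood at 423, 436, 467, 434 and 468 FPKM in aged libraries, against 414, 444, 441, 445 and 424 FPKM in young libraries. The groups overlapped over most of their range, with a fitted fold of 1.03 (95% interval 0.96 to 1.10). Tekt4 (ENSRNOG00000018792, chromosome 10, 14828597 to 14833827, plus strand), known from mice to be needed for coordinated flagellar beating, stood at 293, 301, 335, 322 and 307 FPKM in aged libraries, against 277, 302, 292, 317 and 291 FPKM in young libraries. Aged replicates 3 and 4 were the highest, young replicate 1 the lowest, and the groups overlapped, with a fitted fold of 1.05 (95% interval 0.98 to 1.13). Tekt3 (ENSRNOG00000027212, chromosome 10, 49472460 to 49506465, plus strand) stood at 245, 251, 263, 249 and 270.1 FPKM in aged libraries, against 226, 251, 249, 251 and 246 FPKM in young libraries. Again young replicate 1 was the lowest library and aged replicates 5 and 3 the highest, with a fitted fold of 1.05 (95% interval 0.98 to 1.12). Tekt5 (ENSRNOG00000002571, chromosome 10, 5352933 to 5389737, plus strand) is a tektin of the sperm flagellum and varied most among the tektins. It stood at 95.5, 96.5, 111, 107 and 129 FPKM in aged libraries, against 83.3, 110.4, 115, 90.1 and 109 FPKM in young libraries. Both groups held high and low libraries, with a fitted fold of 1.06 (95% interval 0.91 to 1.25); its SD within groups was 0.19 on the log2 scale, against 0.06 for Tekt1. Its log2 difference of 0.09 was 0.02 without young replicate 1 and 0.02 without aged replicate 5. Without young replicate 1 that of Tekt3 was 0.04, against 0.07 with it.

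The other genes of doublet inner proteins were Cfap126, Cfap53, Cfap52 and Cfap20. Cfap126 (ENSRNOG00000034221, chromosome 13, 89480058 to 89495949, plus strand), also known as flattop, stood at 205, 203, 218, 194 and 212 FPKM in aged libraries, against 169, 201, 199, 193 and 196 FPKM in young libraries. Young replicate 1 was the lowest, and the other 4 young libraries lay within the aged range or just below it, with a fitted fold of 1.08 (95% interval 0.99 to 1.17); limma gave an unadjusted p of 0.0712 and an adjusted p of 0.449. Its log2 difference was 0.06 without young replicate 1, against 0.11 with it. Cfap53 (ENSRNOG00000014585, chromosome 18, 70263359 to 70329907, plus strand), which also acts in left-right patterning of the body, stood at 107, 101, 107, 92.9 and 98.2 FPKM in aged libraries, against 91.0, 92.7, 95.5, 101 and 90.9 FPKM in young libraries. Aged replicates 1, 2, 3 and 5 were above young replicates 1, 2, 3 and 5, but aged replicate 4 and young replicate 4 crossed over, with a fitted fold of 1.07 (95% interval 0.99 to 1.16); limma gave an unadjusted p of 0.0658 and an adjusted p of 0.443. Cfap52, a protein inside the doublet, averaged 88.2 ± 4.16 FPKM in aged and 86.3 ± 3.15 FPKM in young libraries, with a fitted fold of 1.02 (95% interval 0.96 to 1.09). Cfap20, at the junction where the doublet's tubules meet, was the only one of these 9 genes fitted below young: it averaged 64.7 ± 4.02 FPKM in aged and 67.1 ± 3.43 FPKM in young libraries, with a fitted fold of 0.97 (95% interval 0.89 to 1.05).

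Central apparatus genes were fitted lower in aged libraries in all 6 entries, their median log2 difference was -0.14, and 3 had an unadjusted p under 0.05, against 6.35% of all tested genes in that direction and 11.9% in either. None passed after adjustment. Cfap74 (ENSRNOG00000023627, chromosome 5, 172825072 to 172858053, plus strand), a protein of the central apparatus, stood at 42.3, 41.1, 42.3, 42.5 and 39.2 FPKM in aged libraries, against 50.9, 47.2, 47.5, 46.4 and 43.2 FPKM in young libraries. All 5 aged values were below all 5 young values, with a fitted fold of 0.89 (95% interval 0.82 to 0.95); limma gave an unadjusted p of 0.00350 and an adjusted p of 0.319. The gap was narrow, between 42.5 FPKM in aged replicate 4 and 43.2 FPKM in young replicate 5. After TPM scaling, voom or removal of a trend on gene length and level the groups overlapped.

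Cfap46 is annotated as 2 protein-coding models on the minus strand of chromosome 1, where RefSeq lists 1 gene of that name. The upstream model (ENSRNOG00000027374, 211983729 to 212022212, 3288 bp of exon) stood at 18.0, 16.9, 18.4, 18.7 and 17.3 FPKM in aged libraries, against 23.7, 20.9, 21.6, 21.2 and 17.8 FPKM in young libraries. Aged values were within a narrow range below 4 of the young values, and young replicate 5 lay among them, with a fitted fold of 0.86 (95% interval 0.78 to 0.95); limma gave an unadjusted p of 0.00853 and an adjusted p of 0.322. The downstream model (ENSRNOG00000005953, 211943877 to 211956858, 1221 bp of exon) lay 26870 bp further along and stood at 40.4, 36.8, 40.7, 37.9 and 32.0 FPKM in aged libraries, against 44.0, 43.4, 42.6, 42.6 and 36.8 FPKM in young libraries. Young replicate 5 and aged replicate 5 were the lowest libraries of their groups, with a fitted fold of 0.90 (95% interval 0.81 to 1.002) and an unadjusted limma p of 0.0529. The ratio of the downstream to the upstream level was 2.24, 2.18, 2.20, 2.03 and 1.85 in aged libraries and 1.86, 2.08, 1.97, 2.01 and 2.07 in young ones. The downstream model was thus the higher in every library, and the ages overlapped in this ratio.

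Cfap70 (ENSRNOG00000007046, chromosome 15, 4285052 to 4350714, plus strand) stood at 40.7, 43.8, 46.03, 46.5 and 45.3 FPKM in aged libraries, against 47.2, 50.04, 48.5, 49.8 and 45.6 FPKM in young libraries. Aged replicate 1 was the lowest, and aged replicates 3 and 4 lay just above young replicate 5, the lowest young library, with a fitted fold of 0.92 (95% interval 0.86 to 0.99); limma gave an unadjusted p of 0.0314 and an adjusted p of 0.392. The unadjusted p was 0.0836 by voom, 0.0931 with TPM scaling and 0.0753 without aged replicate 1. Cfap54, a central apparatus protein needed for sperm tails in mice, averaged 21.0 ± 1.81 FPKM in aged and 22.9 ± 1.47 FPKM in young libraries, with a fitted fold of 0.92 (95% interval 0.83 to 1.02). Cfap221, first known in mice as the ciliary dyskinesia protein Pcdp1, averaged 18.2 ± 2.40 FPKM in aged and 18.6 ± 1.16 FPKM in young libraries, with a fitted fold of 0.97 (95% interval 0.85 to 1.11). Aged replicates 1 and 3 held its highest values (20.6 FPKM each) and aged replicate 2 its lowest (15.5 FPKM), and its difference changed sign to 0.01 without aged replicate 2.

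**Figure D2:**
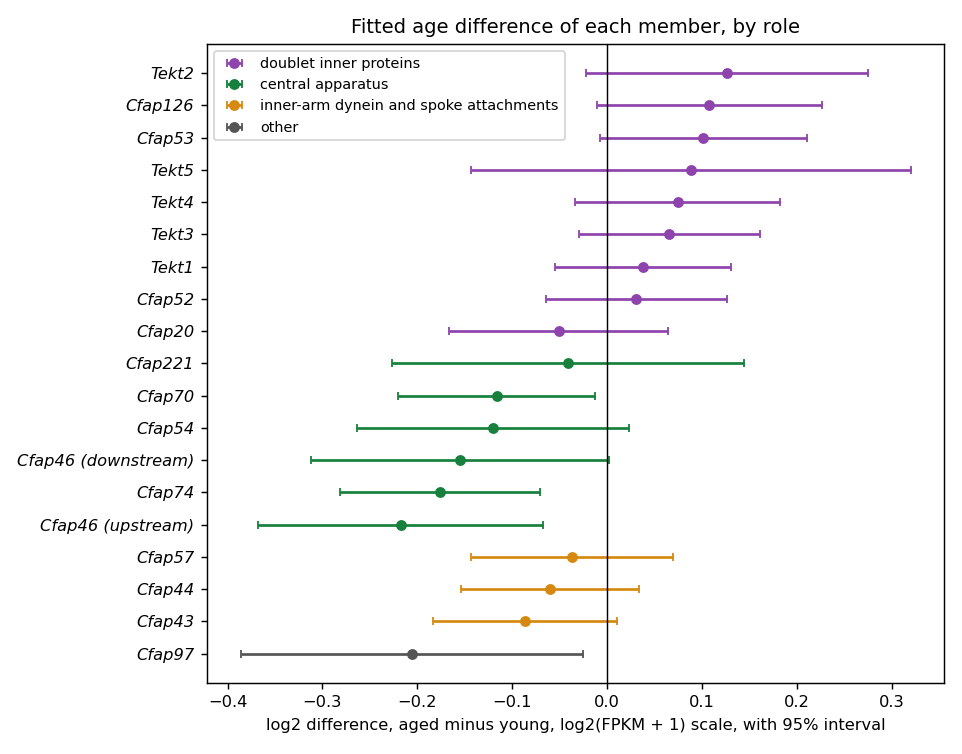
Fitted log2 difference (aged minus young) of each entry on the log2(FPKM + 1) scale, grouped by the place of the protein; points are limma estimates and bars their 95% intervals. Of the 9 doublet inner proteins 8 lie above 0, and all 6 central apparatus entries lie below 0, with intervals of Cfap70, Cfap74, the upstream Cfap46 model and Cfap97 that do not reach 0 before adjustment for 12985 genes.

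Cfap43 and Cfap44 encode partners of a complex that tethers the inner dynein arm to the doublet, and Cfap57 a protein that adjoins inner-arm dyneins. Cfap44 averaged 77.1 ± 3.11 FPKM in aged and 80.4 ± 3.20 FPKM in young libraries, with a fitted fold of 0.96 (95% interval 0.90 to 1.02). Cfap43 averaged 64.5 ± 3.21 FPKM in aged and 68.5 ± 2.39 FPKM in young libraries, with a fitted fold of 0.94 (95% interval 0.88 to 1.01). Cfap57 averaged 61.8 ± 3.31 FPKM in aged and 63.4 ± 2.999 FPKM in young libraries, with a fitted fold of 0.97 (95% interval 0.91 to 1.05). All 3 overlapped between the ages and had unadjusted limma p values of 0.0750 (Cfap43) to 0.461 (Cfap57). Their median difference of -0.06 became -0.01 once each library's dependence on gene length and level was taken out.

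Cfap97 (ENSRNOG00000032192, chromosome 16, 49280084 to 49318383, minus strand), the mammalian relative of the fly sperm protein hemingway, stood at 136, 169, 171, 165 and 146 FPKM in aged libraries, against 203, 183, 186, 181 and 154 FPKM in young libraries. Aged replicates 1 and 5 were the lowest of the 10 libraries, young replicate 5 the lowest young one and young replicate 1 the highest of all, with a fitted fold of 0.87 (95% interval 0.77 to 0.98); limma gave an unadjusted p of 0.0292 and an adjusted p of 0.391. The unadjusted p was 0.0645 with TPM scaling, 0.0742 without aged replicate 1 and 0.0737 without young replicate 1. The entry overlaps a gene on the opposite strand that averaged 0.743 FPKM. Cfap53, Cfap43 and Cfap70 each overlap 1 other gene as well, with means of at most 0.391 FPKM. Reads of genes that overlap on opposite strands cannot be told apart where the strand setting is unknown. The gene overlapping Cfap70 lies on the same strand, so there the strand would not separate the reads either.

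Single libraries stood apart within the young group. Young replicate 1 was the lowest young library for 8 of 19 entries, all 5 tektins among them, and the highest young library for 7 others, among them Cfap97, Cfap74 and both Cfap46 models. Young replicate 5 was the lowest young library for 10 entries. How often each library was lowest or highest over all tested genes was not counted. The FPKM of all genes summed to 580840 in young replicate 5, against 536417 to 545302 in the other young libraries. The mean deviation of the doublet inner proteins from their mean over 10 libraries was -0.03, -0.0048, 0.09, -0.0033 and 0.11 log2 units in aged replicates 1 to 5 and -0.14, 0.01, 0.01, -0.0028 and -0.03 in young replicates 1 to 5. The lowest value was that of young replicate 1 and the highest those of aged replicates 5 and 3. The mean deviation of the central apparatus entries was -0.0035, -0.13, -0.02, -0.05 and -0.15 in aged and 0.10, 0.11, 0.11, 0.08 and -0.05 in young replicates. All aged values were below 0 here, and 4 of 5 young values above it. Set against each other within each library, inner proteins minus central apparatus came to -0.02, 0.12, 0.11, 0.04 and 0.26 in aged and -0.24, -0.10, -0.10, -0.08 and 0.02 in young replicates. Aged replicate 1 and young replicate 5 overlapped, so the groups were not separate on this measure. It sets the role fitted higher against the role fitted lower in these same libraries, so a shift between the ages was built into it. Without young replicate 1 the median of the inner proteins was 0.04, against 0.07 with it, and that of the central apparatus -0.13, against -0.14. The summed spermatocyte markers were 185, 206, 214, 238 and 208 FPKM in aged replicates 1 to 5 and 278, 236, 238, 245 and 205 FPKM in young replicates 1 to 5, highest in young replicate 1 and lowest of the young group in young replicate 5. The genes listed for later spermatids were Prm1, Prm2, Tnp1, Tnp2, Odf1, Gapdhs, Akap4 and Smcp. They summed to 34204, 27953, 30508, 30533 and 26164 FPKM in aged replicates 1 to 5. In young replicates 1 to 5 they summed to 37562, 26502, 29138, 31528 and 42906 FPKM, highest in young replicates 5 and 1. In a bulk fraction these sums do not show which cells held the RNA. The part of the spermatocyte and later spermatid lists in the differences was not tested.

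**Figure D3:**
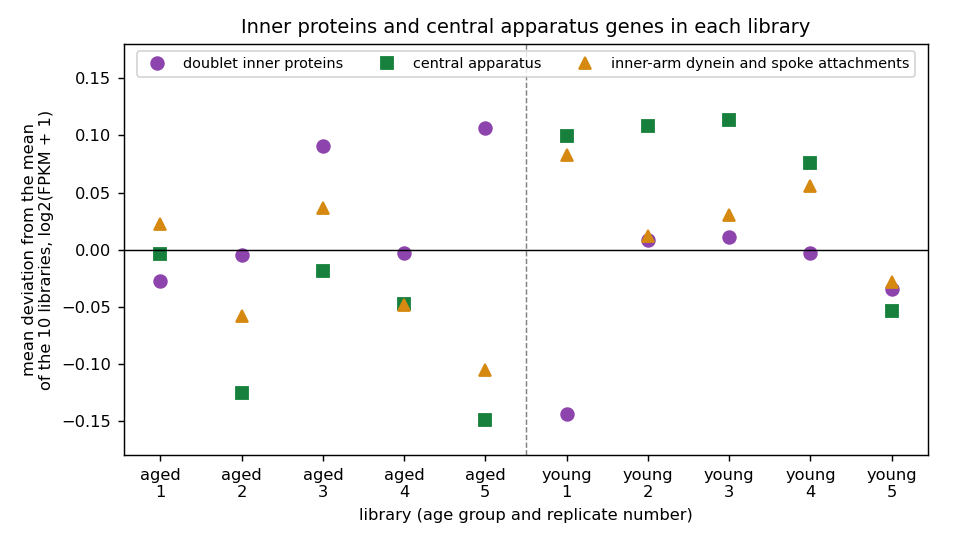
Mean deviation of the doublet inner proteins (circles, 9 entries), the central apparatus (squares, 6 entries) and the inner-arm attachments (triangles, 3 entries) from their mean over the 10 libraries, in log2(FPKM + 1) units, for aged replicates on the left and young replicates on the right. The central apparatus means lie between -0.15 and -0.0035 in aged libraries and reach 0.11 in young ones. Young replicate 1 holds the lowest mean of the inner proteins (-0.14). Single entries, not shown here, spread more widely.

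Genes of the same structures under other names were then set beside these. By RefSeq's synonyms, 16 protein-coding genes in the files carry an older symbol of a gene now named Cfap. This list was drawn up after the files had been opened and may miss genes whose older symbol is not among those synonyms. Of the 16, 15 were tested and 0 passed, with 11 fitted higher and 4 lower and a median log2 difference of 0.03. Of these, 10 are doublet inner proteins, 8 higher and 2 lower, with a median of 0.09. Without young replicates 1 and 5 the 15 genes split into 7 higher and 8 lower and the 10 into 6 and 4. Cfap90 (listed as RGD1308544) stood at 236, 197, 225, 195 and 241 FPKM in aged libraries, against 168, 198, 197, 181 and 203 FPKM in young libraries. Young replicate 1 was the lowest and aged replicates 5 and 1 the highest, with a fitted fold of 1.15 (95% interval 1.03 to 1.29); limma gave an unadjusted p of 0.0193 and an adjusted p of 0.364. The most abundant of this list were Cfap206 (listed as RGD1310641), a radial spoke protein, at 422 ± 19.9 FPKM in aged and 420.2 ± 21.7 FPKM in young libraries, and Cfap36 (listed as Ccdc104), at 395 ± 17.8 FPKM in aged and 388 ± 14.5 FPKM in young libraries.

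Of 16 further inner protein genes with other names, 9 were found and tested: 0 passed, 8 were fitted higher and 1 lower, with a median of 0.07. That median was 0.05 without young replicate 1 and 0.03 without young replicates 1 and 5, with the same counts. These genes were measured in the same 10 libraries as the members. Ribc2 and Ribc1, which share the RIB43A domain of proteins of the doublet wall, had the unadjusted p values under 0.05 in this list. Ribc2 averaged 252 ± 10.6 FPKM in aged and 231 ± 11.1 FPKM in young libraries, with a fitted fold of 1.09 (95% interval 1.02 to 1.17) and a limma adjusted p of 0.365. Ribc1 averaged 44.3 ± 1.22 FPKM in aged and 40.2 ± 3.49 FPKM in young libraries, with a fitted fold of 1.10 (95% interval 1.01 to 1.21), and its log2 difference of 0.14 was 0.09 without young replicate 1. Mns1, which with Ribc2 was the most abundant of these 9, averaged 197 ± 15.1 FPKM in aged and 187 ± 9.89 FPKM in young libraries. Of 8 other central apparatus genes, all tested, 0 passed, 2 were fitted higher and 6 lower, with a median of -0.08. Hydin, a very large protein of the central apparatus, averaged 30.7 ± 1.40 FPKM in aged and 33.9 ± 1.91 FPKM in young libraries, with a fitted fold of 0.91 (95% interval 0.84 to 0.98). Its log2 difference of -0.14 (unadjusted limma p 0.0211) was -0.04 (limma p 0.346) once the dependence on gene length and level was taken out. Dlec1 averaged 22.8 ± 4.596 FPKM in aged and 27.8 ± 0.774 FPKM in young libraries, with a fitted fold of 0.81 (95% interval 0.68 to 0.97); aged replicate 5 stood at 16.3 FPKM and aged replicate 1 at 27.8 FPKM, within the young range. Its log2 difference was -0.19 without aged replicate 5, against -0.30 with it. Spag6 and Spag16, the most abundant of this list, averaged 198 ± 9.83 FPKM in aged and 212 ± 10.6 FPKM in young libraries (Spag6) and 86.9 ± 7.18 FPKM in aged and 90.7 ± 2.61 FPKM in young libraries (Spag16).

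The nexin-dynein regulatory complex links neighbouring doublets, and the ruler proteins set the repeat along them. Of 14 genes listed, 12 were tested, 0 passed, 5 were fitted higher and 7 lower, with a median of -0.02, which voom put at 0.00643. Ccdc65 and Drc1 were the most abundant, at 205 ± 8.14 FPKM in aged and 196 ± 8.21 FPKM in young libraries (Ccdc65) and 157 ± 7.59 FPKM in aged and 155 ± 6.70 FPKM in young libraries (Drc1), and Iqcd averaged 73.0 ± 4.49 FPKM in aged and 67.1 ± 2.96 FPKM in young libraries, with an unadjusted limma p of 0.0396. Of 10 regulators of ciliary and spermatid genes, 9 were tested and 0 passed, with 5 higher and 4 lower; Tbpl1, a testis relative of the TATA-binding protein, averaged 256 ± 14.5 FPKM in aged and 269 ± 8.08 FPKM in young libraries. For comparison, axonemal dynein and radial spoke genes (14 tested) had a median of -0.11 with 5 higher and 9 lower. At an unadjusted limma p under 0.05 these were 0 and 5. Intraflagellar transport genes (14 tested) had a median of -0.02, 0.00376 by voom, with 7 higher and 7 lower. At the same limit these were 3 and 3, and 2 genes had groups that did not overlap. Over all tested genes the shares at that limit were 5.54% higher and 6.35% lower, and 2.6% did not overlap in either direction. No test compared these lists with each other.

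**Figure D4:**
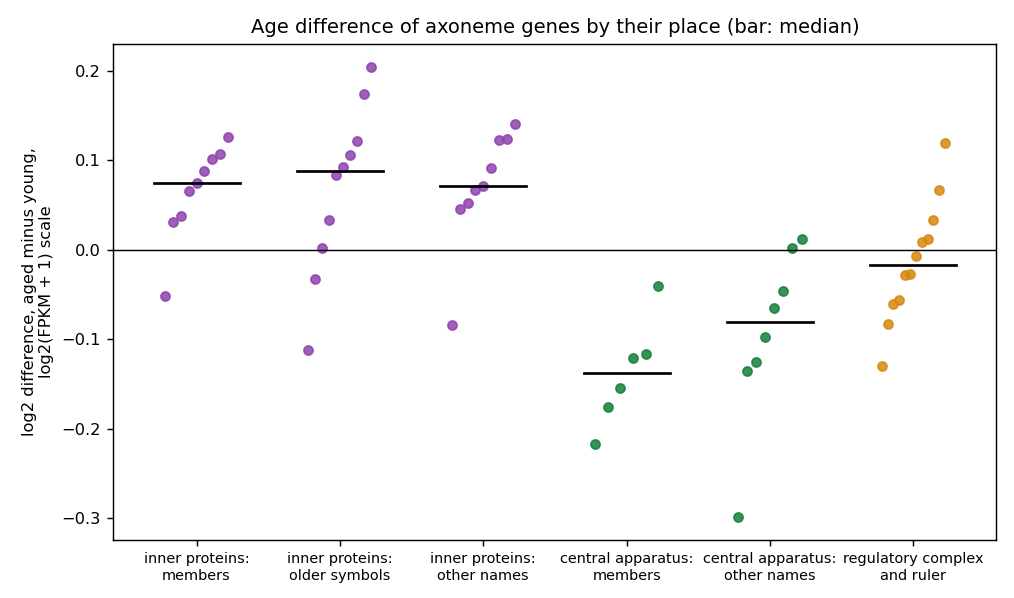
Log2 differences (aged minus young, log2(FPKM + 1) scale) of single genes, in columns by place in the axoneme and by how the gene is named in the files; bars mark the median of each column. The medians of the 3 columns of inner proteins are 0.07, 0.09 and 0.07, and those of the 2 columns of central apparatus genes are -0.14 and -0.08.

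Gene length moved with these signs. The doublet inner proteins have a median gene length of 1578 bp and the central apparatus entries one of 2482.5 bp, against 1886 bp over all tested genes. Over all 12985 tested genes the median log2 difference was 0.01 for genes up to 1000 bp and -0.05 for genes over 4000 bp, where 52.4% and 32.6% were fitted higher. Spearman's correlation of length with the difference was -0.12 across the 12985 genes and -0.44 across the 19 entries, a description across genes that share the same libraries. When each library was freed of its dependence on gene length and level, a setting chosen after the data were seen, the median of the inner proteins was 0.06 and that of the central apparatus -0.14, against 0.07 and -0.14 without. The counts of 8 of 9 fitted higher and 6 of 6 fitted lower were the same under that setting. The lengths are those of the files, where Cfap46 is split into models of 1221 and 3288 bp. The setting therefore cannot take out a dependence on the length of a full transcript where a model covers only part of it. Of the 10 inner proteins under older symbols, 7 were fitted higher with the length trend removed, against 8 without. Of the 9 with other names, 8 were higher either way. The median of the other central apparatus genes was -0.05 with the trend removed, against -0.08 without, and that of the axonemal dyneins and radial spokes -0.04, against -0.11.

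**Figure D5:**
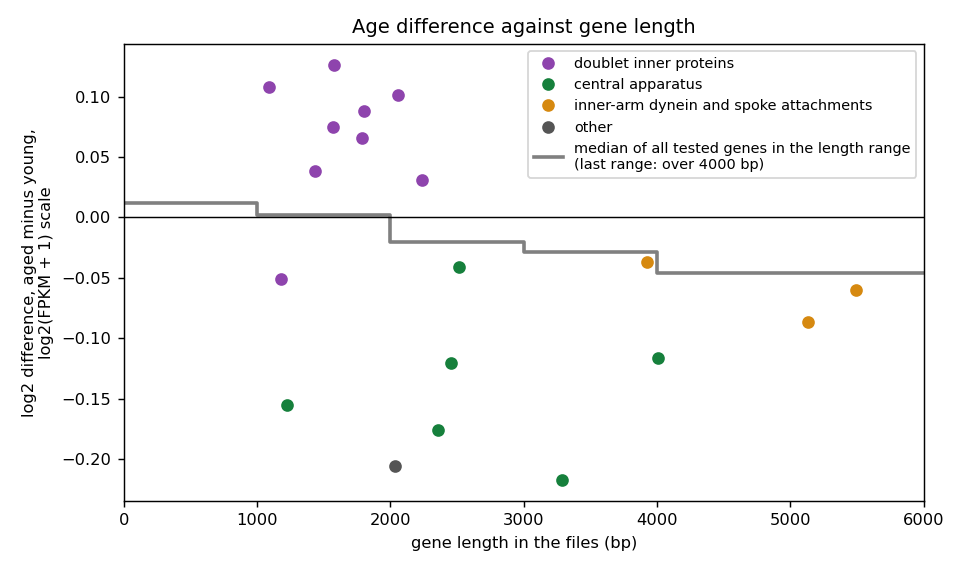
Log2 difference (aged minus young, log2(FPKM + 1) scale) of each entry against its gene length in the files, coloured by place; the grey line is the median of all tested genes in 5 length ranges. The line runs from 0.01 in the shortest range to -0.05 in the longest, and the central apparatus entries lie below it.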

How the data were processed

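Round spermatid mRNA was sequenced from 5 aged and 5 young samples. Per the submitters' processing notes, HISAT2 2.0.5 and featureCounts 1.5.0-p3 were used; no source used here names the genome build or strand setting. The coordinates are those of the deposited files. The deposited FPKM values gave whole fragment counts for 100% of values within a tolerance of 0.001, after multiplying by gene length and a denominator for each library. That denominator was 0.984 to 1.03 times the summed fragments in aged and 0.966 to 1.01 times in young libraries. Genes averaging at least 1 FPKM were tested with limma 3.58.1 (R 4.3.3) on log2(FPKM + 1), aged minus young, with Benjamini-Hochberg adjustment; a pseudocount understates changes of low genes. The fit was tested on simulated data. The members and lists were chosen with earlier results of these data known. All members are described; from the related lists, other than dyneins, spokes and intraflagellar transport (counts only), the text names the most abundant genes and those with an unadjusted p under 0.05. One gene of the inner protein list is not reported here. Alternatives were another pseudocount, other filters, median-of-ratios and TPM scaling, voom, a replicate block and left-out libraries. Replicate numbers were not taken to pair the samples. Promoter windows are RefSeq's, build GRCr8.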

Additional observations from a re-analysis of the deposited data

Results flagged for a closer look

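Of 38 sets of 5 values, 1 per entry and age, 4 held a library far from the other 4 of its age by Dixon's criterion. Chance meets it in about 1 of 20 independent sets, but these sets share the same libraries. The share over all tested genes was not counted, so the count cannot be read as a family result. Young replicate 1 was low for 3 genes of doublet inner proteins. Tekt2 stood at 364 FPKM there, with the next young library at 443 FPKM. Tekt3 stood at 226 FPKM, with the next at 246 FPKM, and Cfap126 at 169 FPKM, with the next at 193 FPKM. Young replicate 5 was low for the downstream Cfap46 model, at 36.8 FPKM, with the next at 42.6 FPKM.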

How the results depend on the processing

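The 8 of 9 doublet inner proteins fitted above young kept that count under every alternative tried, and the 6 of 6 central apparatus entries fitted below kept theirs except without aged replicate 2, where Cfap221 turned to 0.011 (range -0.086 to 0.011 with 1 library left out). The other filters and the replicate block leave these estimates unchanged by design, and median-of-ratios scaling left them almost unchanged. Those settings are therefore no check on the counts. No gene passed the threshold in the main setting, and leaving out 1 library gave 0 to 1 genes. Leaving out young replicates 1 and 5 together gave 1. That setting was chosen after seeing the data, like the removal of a trend on gene length and level (below, the length trend). Entries with an unadjusted p under 0.05 numbered 4, and 2 to 6 with 1 library left out, where the share of all tested genes ran from 8.88% (without young replicate 1) to 16.8% (without young replicate 5); the 6 came without aged replicate 3, aged replicate 4 or young replicate 5. Entries whose groups did not overlap numbered 1, against 0 with TPM scaling, voom or the length trend removed, 1 to 5 with 1 library left out (3 without aged replicate 4, 5 without young replicate 5), 2 without aged replicates 1 and 2, and 5 without young replicates 1 and 5. The share of all tested genes, 2.6% in the main setting, was not counted under these settings. Groups of fewer libraries overlap less readily for any gene, so the higher counts cannot be read as a family result. A replicate block gave 0 genes past the threshold and 5 entries with an unadjusted p under 0.05. The share of all tested genes at that limit was then 9.7%. Same-numbered samples correlated at -0.16 to 0.05 in their deviations, so the numbers were not taken as pairs. Differences near 0 changed sign. Without young replicates 1 and 5 they were -0.0048 for Ccdc104, -0.016 for RGD1310641 and -0.030 for Drc1. With 1 library left out they ran over -0.027 to 0.022 for RGD1310641, -0.011 to 0.041 for Drc1 and -0.039 to 0.0051 for Rfx2. Spag16 was at 0.012 without aged replicates 1 and 2. Rfx2 was at 0.0081 by voom, 0.017 without aged replicates 1 and 2 and 0.014 with the length trend removed. The cause was not tested. Depth was not varied; with 5 samples a group, the widths of the intervals above limit what could be seen.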
